A study of Homo sapiens with 6 samples.

Results

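The genes of insulin-like growth factor (IGF) binding in T98G cells are described here: the binding proteins IGFBP2, IGFBP3, IGFBP4, IGFBP5, IGFBP6 and IGFBP7, the IGF-II receptor gene IGF2R, and the insulin receptor substrate genes IRS1 and IRS2. They were selected by gene symbol, with earlier results of these data known, and are 9 of the 23026 genes in the table of spike-in-normalized counts. Each of the 9 had reads in each of the 6 libraries, so none was undetected. The filter on low values, a mean above 10 normalized CPM (counts per 1000000 human counts), was passed by 8 of them and missed by IRS2, at 8.02. mRNA of T98G, a human glioblastoma cell line, was sequenced to see how transcript levels differ when the protein kinase DYRK1A is depleted. The 3 shControl libraries (1A, 1B and 1C) came from cells infected with a control lentivirus, and the 3 shDYRK1A libraries (1A, 1B and 1C) from cells infected with a lentivirus that expresses a short hairpin RNA to DYRK1A. Cells of both groups were kept in DMEM with fetal bovine serum, were selected with puromycin and then recovered without it, and were combined in equal numbers with a constant number of fly (Drosophila melanogaster) Kc167 cells before RNA was extracted. The design holds 1 cell line and names 1 hairpin per group, and nothing in the labels says that the libraries of a group came from separate cultures, so the p-values below measure the spread between these libraries, which may be technical.

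IGF-I and IGF-II are secreted growth factors that signal through the receptor tyrosine kinase IGF1R. Outside the cell they are mostly held by the IGF binding proteins, which keep the ligands from the receptor or release them near it when a protease cuts the binding protein. IGF2R, the cation-independent mannose 6-phosphate receptor, takes up and degrades IGF-II and sorts lysosomal enzymes, and it has no kinase of its own. Inside the cell the activated IGF and insulin receptors phosphorylate IRS1 and IRS2, docking proteins that recruit phosphoinositide 3-kinase (PI3K) and so activate AKT, which in turn keeps FOXO transcription factors out of the nucleus. Glioblastomas are known for high IGFBP2 levels.

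The libraries held 33708297 to 42154438 reads counted on human genes, and their spike-in size factors ran from 0.821 to 1.21. On spike-in scaling the median log2 fold change of the 9697 genes tested was -0.40, shDYRK1A over shControl, and 93.6% of them were negative. TMM scaling, which takes the bulk of human genes as unchanged, moved that median to 0.00, so each member is given on both scales. Spike-in scaling rests on the equal cell numbers set at mixing. The cells behind each library were not counted in these files, so fewer cells and less RNA per cell cannot be told apart. The targeted gene, DYRK1A, had 2119 ± 194 normalized counts in shControl and 1274 ± 213 in shDYRK1A (SD, n = 3), and its log2 fold change was -0.73 with spike-in scaling and -0.34 with TMM. Library shDYRK1A 1B stood apart, with 10.1 and 12.2 chi-square units per gene against the other shDYRK1A libraries, where the other pairs within a group had 3.49 to 5.86. Markers of glial and mesenchymal glioma cells were above 1 CPM in all libraries for 4 of 7 genes, with GFAP, S100B and SOX2 at or near 0. Their summed level was 3337 to 3487 CPM in shControl and 3115 to 3201 CPM in shDYRK1A, almost all of it VIM and CD44. Summed immune markers stayed at or below 0.316 CPM, endothelial markers at or below 0.954 CPM and oligodendrocyte markers at or below 0.902 CPM. The 3 neuron markers summed to 12.4 to 13.1 CPM in shControl and 9.62 to 9.84 CPM in shDYRK1A, with SNAP25 lower (9.83 to 11.2 and 5.61 to 6.06 CPM), SYP higher (1.87 to 2.57 and 3.78 to 4.12 CPM) and RBFOX3 at or near 0. The 3 epithelial markers summed to 161 to 189 CPM, almost all of it KRT18 (159 to 189 CPM). EPCAM was at 0.683 to 1.68 CPM and CDH1 at or near 0. The share of unmapped reads was 8.44 to 10.7% in shControl and 10.8 to 15.6% in shDYRK1A. The part of these shifts in the results below was not tested.

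The members lie on 7 chromosomes (GRCh38), and the deposited coordinates of all 9 equalled those of GENCODE v29. IGFBP2 (chr2:216632828-216664436, plus strand) and IGFBP5 (chr2:216672105-216695525, minus strand) are neighbours that converge tail to tail, 7668 bases apart with 0 annotated genes between them. IRS1 lies farther along the same chromosome (chr2:226731317-226799759, minus strand). The others are IGFBP7 (chr4:57030773-57110385, minus strand), IGF2R (chr6:159969099-160113507, plus strand), IGFBP3 (chr7:45912245-45921874, minus strand), IGFBP6 (chr12:53097436-53102345, plus strand), IRS2 (chr13:109752698-109786568, minus strand) and IGFBP4 (chr17:40443461-40457731, plus strand). IGFBP7 shares 270 exonic bases with POLR2B on the opposite strand, and POLR2B had 5529 to 7462 reads per library. The kit is described as stranded, but whether the counting used the strand is not given in the sources used here, so the IGFBP7 counts carry that uncertainty. Antisense genes that share exonic bases with IGFBP5, IGFBP7 or IRS2 had at most 6 reads in any library.

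The 250 bases before the transcript start are shown for the members on which the results turn: IRS1, IRS2 and IGFBP4, which were lower in shDYRK1A under both scalings (IRS2 in the wider filter described below), and IGFBP5, by far the most abundant. They were taken from RefSeq (GRCh38.p14) and are written 5′ to 3′ on the gene's own strand, ending just before the start. Capitals mark matches to the motifs named after them. The windows are chr2:226799821-226800070 (minus strand) for IRS1, chr13:109786584-109786833 (minus strand) for IRS2, chr17:40443200-40443449 (plus strand) for IGFBP4 and chr2:216695550-216695799 (minus strand) for IGFBP5.
IRS1: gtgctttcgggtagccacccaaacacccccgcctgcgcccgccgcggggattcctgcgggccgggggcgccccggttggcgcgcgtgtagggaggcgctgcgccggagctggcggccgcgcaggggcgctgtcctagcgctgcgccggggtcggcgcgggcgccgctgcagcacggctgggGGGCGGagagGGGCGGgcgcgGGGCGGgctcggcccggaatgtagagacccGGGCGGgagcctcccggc
IRS2: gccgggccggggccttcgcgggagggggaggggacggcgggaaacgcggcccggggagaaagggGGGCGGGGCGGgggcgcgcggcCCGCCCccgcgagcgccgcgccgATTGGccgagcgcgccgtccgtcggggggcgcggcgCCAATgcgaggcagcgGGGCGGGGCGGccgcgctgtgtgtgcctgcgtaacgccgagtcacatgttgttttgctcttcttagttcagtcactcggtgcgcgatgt
IGFBP4: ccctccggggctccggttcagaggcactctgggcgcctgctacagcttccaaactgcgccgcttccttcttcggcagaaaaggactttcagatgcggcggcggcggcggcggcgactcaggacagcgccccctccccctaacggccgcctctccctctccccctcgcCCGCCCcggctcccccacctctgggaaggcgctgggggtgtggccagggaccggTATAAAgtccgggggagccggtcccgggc
IGFBP5: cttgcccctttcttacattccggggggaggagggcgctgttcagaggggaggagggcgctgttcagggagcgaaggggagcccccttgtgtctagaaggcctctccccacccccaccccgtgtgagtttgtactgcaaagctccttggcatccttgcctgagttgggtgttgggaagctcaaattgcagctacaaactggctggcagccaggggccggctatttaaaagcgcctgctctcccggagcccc

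Each window was searched on both strands for TCTCGCGAGA, the palindrome the study links to DYRK1A at promoters, for its inner CTCGCGAG, for a forkhead motif spelled TGTTTAC, and for a TATA box spelled TATAAA. It was also searched for a CCAAT box by that name, for a GC box spelled GGGCGG, for an E box spelled CACGTG and for the AP-1 motif TGANTCA. Neither the palindrome, which 0.373% of 35116 RefSeq promoters of this length hold, nor its inner letters (0.874%), which lie within it, were in the windows of the 8 members with an entry, and the AP-1 letters (6.57% of all promoters) were in none of them either. IGFBP7 has no entry. GC boxes, held by 42.6% of all promoters, were in windows of 7 of the 8 members, with 4 in IRS1, 5 in IRS2 and none in IGFBP5. Overlapping matches count separately, as in IRS2. IGFBP4 held TATAAA (10.7% of all promoters) at position -29 from the start, IRS2 held CCAAT (32.0%) at -141 and -105, IGFBP2 held it at -188 from 1 of its starts, IGF2R held 3 E boxes (6.34%) and IGFBP6 held 1 forkhead motif (2.98%). The GC content of these windows was 80.8% for IRS1, 76.4% for IRS2, 71.6% for IGFBP4 and 61.2% for IGFBP5, against a median of 58.0% over all promoters. These matches describe letters in the windows and do not show that a factor binds there.

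With spike-in scaling, 4 of the 8 members tested were lower in shDYRK1A at an adjusted p below 0.05 (IRS1, IGFBP4, IGFBP6 and IGF2R), and 0 were higher. Over all genes tested, 63.4% were lower and 1.08% higher, so the share of lower members was not above the background. Asking also for a log2 fold change beyond 0.7 in size left IRS1 alone among the members, against 14.3% of all genes lower and 0.278% higher. The members' median log2 fold change was -0.31 and that of the IGFBP genes -0.18, beside -0.40 for all genes. With TMM scaling IRS1 and IGFBP4 were lower, and IGFBP2, IGFBP3 and IGFBP5 were higher. Over all genes 28.6% were lower and 27.3% higher, so a split in both directions was also the background. IRS1 and IGFBP4 were the 2 members lower under both scalings. With the wider filter of edgeR's filterByExpr, under which 17530 genes were tested, IRS2 joined the members lower (5 of 9, with 0 higher), and 44.2% of all genes were lower and 1.97% higher.

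The groups were also compared without a model. In normalized counts the 3 shDYRK1A libraries lay below all 3 shControl libraries for 4 of the 8 members tested and above them for 0, where 63.6% and 1.59% of all genes did so. In CPM, which uses no spike-in, 2 members (IRS1 and IGFBP4) lay wholly below, against 29.3% of genes. Wholly above lay 4 (IGFBP2, IGFBP3, IGFBP5 and IGFBP7), against 33.5% of genes. All genes thus split in both directions here too, and a split alone does not set the members apart.

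**Figure D1:**
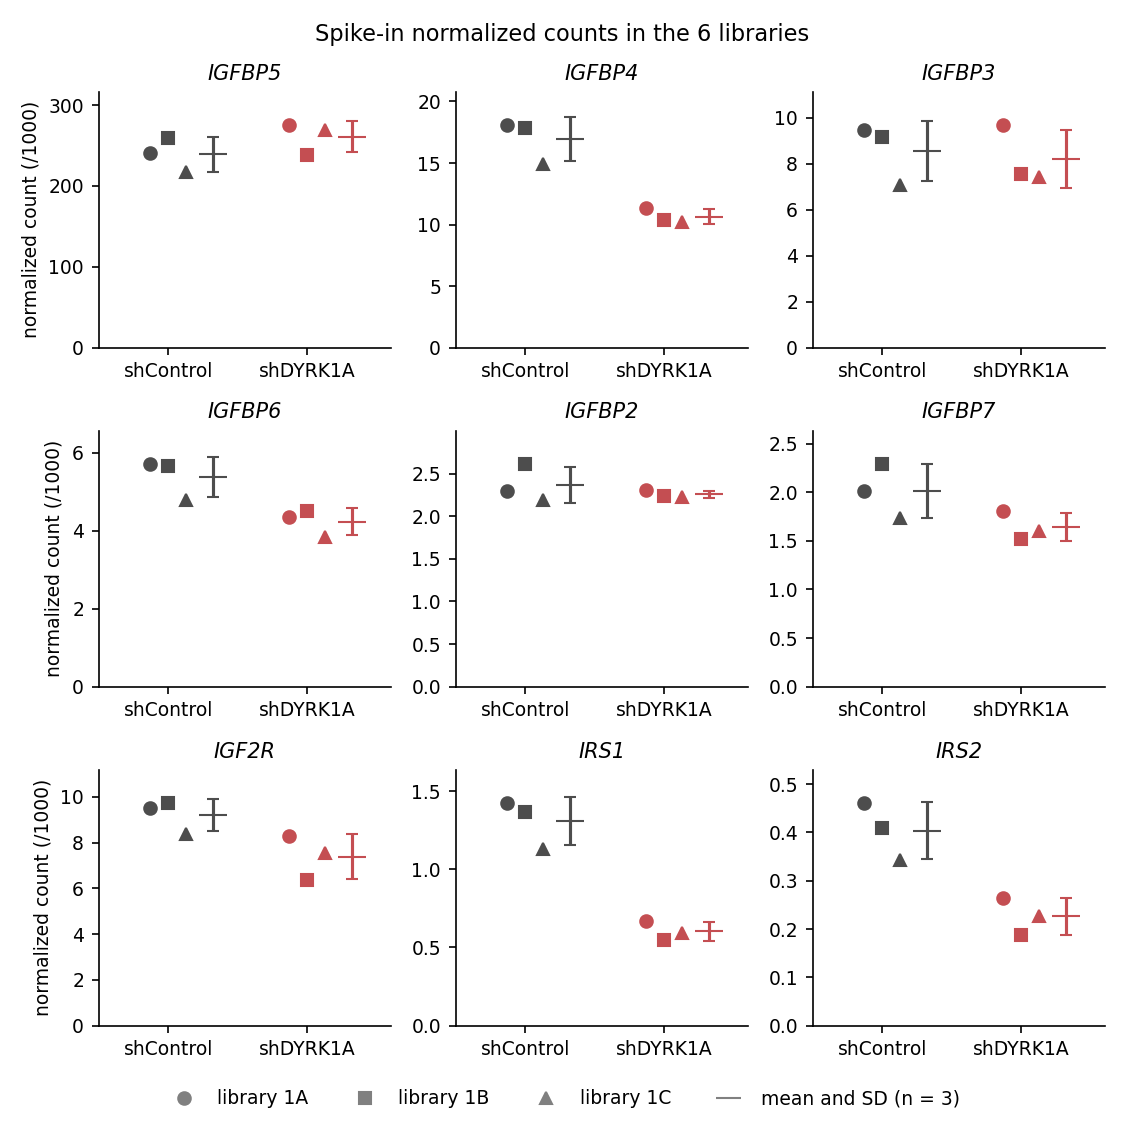
Spike-in-normalized counts of the 9 members, in units of 1000 counts on linear axes that start at 0, for shControl (grey) and shDYRK1A (red) libraries 1A (circle), 1B (square) and 1C (triangle), with the mean and SD (n = 3) beside each group. The groups are apart for IGFBP4, IGFBP6, IGF2R, IRS1 and IRS2 and overlap for IGFBP5, IGFBP3, IGFBP2 and IGFBP7.

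IGFBP5, a binding protein that also attaches to extracellular matrix, was the leading transcript of the family. Across the shControl libraries, here and below in the order 1A, 1B, 1C, its normalized counts were 241310, 259538 and 216927. Across the shDYRK1A libraries, in the same order, they were 274966, 238745 and 269765. The groups overlapped through shDYRK1A 1B, which lay below shControl 1A and 1B. The log2 fold change was 0.13 ± 0.12 (SE; edgeR's quasi-likelihood test, adjusted p 0.341). In CPM the groups were apart, at 5018, 5426 and 5407 in shControl and 7501, 7645 and 8099 in shDYRK1A. With TMM scaling IGFBP5 rose 1.44-fold (log2 fold change 0.53 ± 0.05, adjusted p 8.3e-06), and it remained higher when any library was left out (0.49 to 0.56). By mean raw count it was the seventh of the 9697 genes tested. Among 9379 protein-coding genes ranked by normalized count per kilobase of exon, it was at rank 24 in shControl and rank 17 in shDYRK1A.

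IGFBP4, a binding protein that mainly inhibits IGF action and is the classical substrate of the protease PAPPA, fell under both scalings. It had 18062, 17854 and 14927 normalized counts in shControl, against 11358, 10371 and 10217 in shDYRK1A. Every shDYRK1A library was below every shControl library. IGFBP4 stood at 0.628 of its shControl level (log2 fold change -0.67 ± 0.13, adjusted p 3.3e-06), and the fold change ran from -0.75 to -0.62 with each library left out in turn. In CPM it had 376, 373 and 372 in shControl against 310, 332 and 307 in shDYRK1A, again apart. With TMM scaling the fall was smaller (-0.26 ± 0.05, adjusted p 0.00091) and was kept in all 6 leave-one-out fits.

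IGFBP3, the main carrier of IGFs in blood and a growth inhibitor in many cell types, had normalized counts of 9494, 9152 and 7066 in shControl, and 9675, 7569 and 7427 in shDYRK1A. The groups overlapped throughout. The log2 fold change was -0.06 ± 0.13 with an adjusted p of 0.693. IGFBP2, the binding protein raised in glioblastoma, had 2292, 2608 and 2195 normalized counts in shControl and 2302, 2238 and 2224 in shDYRK1A, which lay inside the shControl range, with a log2 fold change of -0.07 ± 0.14 (adjusted p 0.670). With TMM scaling both rose, IGFBP3 by 0.35 ± 0.06 (adjusted p 0.00070) and IGFBP2 by 0.34 ± 0.07 (adjusted p 0.0019) on the log2 scale, and both did so in all 6 leave-one-out fits. The spike-in fold changes of these 2 genes crossed 0 when single libraries were left out (-0.12 to 0.0073 for IGFBP2 and -0.19 to 0.020 for IGFBP3).

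IGFBP6, which prefers IGF-II over IGF-I, had normalized counts of 5703, 5655 and 4786 in shControl, and 4344, 4516 and 3843 in shDYRK1A. The groups were apart, with shControl 1C nearest to the shDYRK1A libraries. The log2 fold change was -0.35 ± 0.14 with an adjusted p of 0.0207. That call was lost without shControl 1A (adjusted p 0.126), without shControl 1B (0.111) or without shDYRK1A 1C (0.183). With TMM scaling the fold change was 0.07 ± 0.08 (adjusted p 0.497), and in CPM the range of shDYRK1A (115 to 145) covered that of shControl (118 to 119), with library 1B, which stood apart, at the top. Without that library the TMM fold change was -0.06.

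IGFBP7, a relative of the family that binds IGFs weakly and is found in extracellular matrix, had normalized counts of 2017, 2287 and 1735 in shControl, and 1805, 1519 and 1602 in shDYRK1A. The groups overlapped through shControl 1C and shDYRK1A 1A. The log2 fold change was -0.29 ± 0.15 with an adjusted p of 0.0642, and the threshold was passed without shControl 1C (-0.39, adjusted p 0.0067) or without shDYRK1A 1A (-0.37, adjusted p 0.036). In CPM IGFBP7 was 41.9, 47.8 and 43.2 in shControl and 49.2, 48.7 and 48.1 in shDYRK1A, and the TMM fold change was 0.11 ± 0.06 (adjusted p 0.120, and 0.042 without shControl 1B).

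IGF2R had normalized counts of 9503, 9716 and 8394 in shControl, and 8280, 6347 and 7533 in shDYRK1A. The groups were apart, narrowly so between shControl 1C and shDYRK1A 1A. The log2 fold change was -0.32 ± 0.13 with an adjusted p of 0.0292. The call was lost without shControl 1A (adjusted p 0.123), shControl 1B (0.146), shDYRK1A 1B (0.188) or shDYRK1A 1C (0.107). With TMM scaling the fold change was 0.08 ± 0.04 (adjusted p 0.14, and 0.0092 without shDYRK1A 1B), and the groups overlapped in CPM (198 to 209 in shControl and 203 to 226 in shDYRK1A).

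The insulin receptor substrates had the lowest fold changes of the members. IRS1 had normalized counts of 1422, 1366 and 1132 in shControl, and 670, 547 and 593 in shDYRK1A. All shDYRK1A libraries were far below the lowest shControl library. IRS1 fell to 0.462 of its shControl level (log2 fold change -1.11 ± 0.16, adjusted p 3.4e-11), and the fold change ran from -1.21 to -1.05 with each library left out in turn. In CPM it had 29.6, 28.6 and 28.2 in shControl against 18.3, 17.5 and 17.8 in shDYRK1A. With TMM scaling IRS1 was still lower (-0.71 ± 0.06, adjusted p 1.7e-06), which is 0.611 of the shControl level.

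IRS2 was the scarcer of the pair, with raw counts of 378, 360 and 352 in shControl and 280, 203 and 276 in shDYRK1A. It had 460, 409 and 343 normalized counts in shControl, against 265, 188 and 227 in shDYRK1A. The groups did not overlap. Under the wider filter IRS2 was lower, at -0.83 ± 0.18 on the log2 scale (adjusted p 2.9e-05), and -0.95 to -0.71 with each library left out. With TMM scaling in that filter it was -0.46 ± 0.10 (adjusted p 0.0015).

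**Figure D2:**
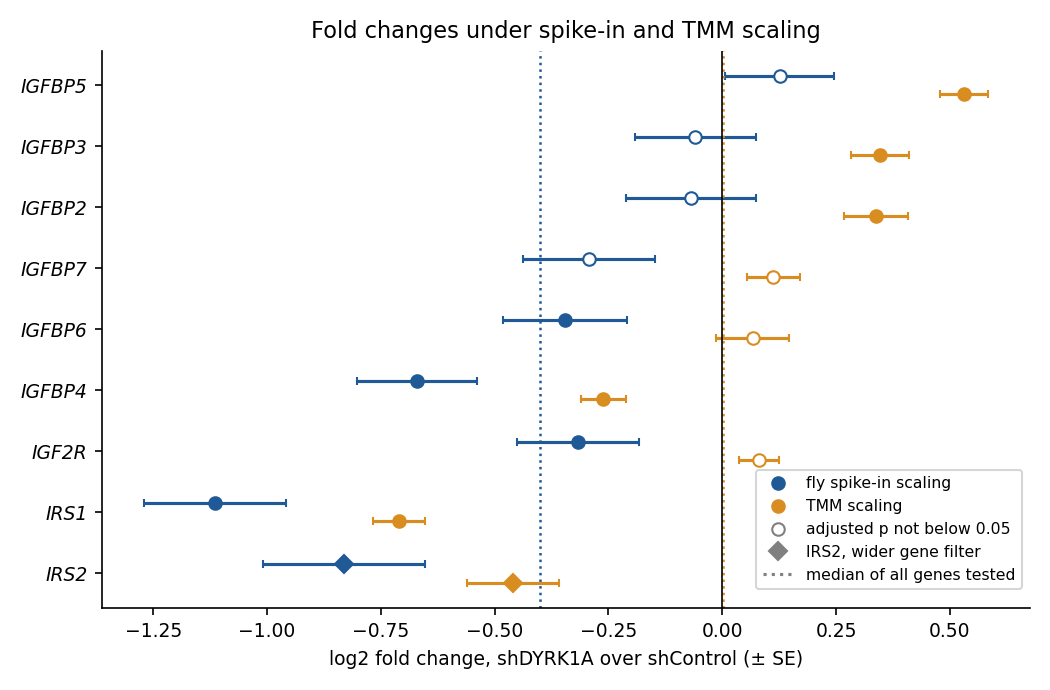
Log2 fold changes, shDYRK1A over shControl, with their SE, for the 9 members under fly spike-in scaling (blue) and TMM scaling (orange). Filled symbols have an adjusted p below 0.05, dotted lines give the median of the 9697 genes tested (-0.40 and 0.00), and IRS2 (diamonds) comes from the fit with the wider gene filter. IRS1, IRS2 and IGFBP4 lie left of the dotted line of their own scaling in both fits, and IGFBP5 lies farthest to the right.

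The ratio of IRS2 to IRS1 within a library depends on no size factor. Its log2 value was -1.63, -1.74 and -1.72 in shControl and -1.34, -1.54 and -1.38 in shDYRK1A. Every shDYRK1A value was above every shControl value. The means were -1.70 ± 0.06 and -1.42 ± 0.10 (SD, n = 3), a difference of 0.28 with an exact two-sided permutation p of 0.1, the smallest that 3 libraries against 3 allow.

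The share of human counts that came from the binding proteins was higher in each shDYRK1A library than in any shControl library. IGFBP2 to IGFBP7 together made up 0.580%, 0.621% and 0.617% of the reads on human genes in the shControl libraries. In the shDYRK1A libraries they made up 0.831%, 0.848% and 0.886%. Wilson 95% intervals, which cover counting error only, ran from 0.578 to 0.582% for shControl 1A, the lowest, and from 0.883 to 0.889% for shDYRK1A 1C, the highest. The means were 0.606 ± 0.023% and 0.855 ± 0.028% (SD, n = 3), which differ by 0.249 percentage points, with an exact two-sided permutation p of 0.1. A share without IGFBP5 was added after the values were seen. It was 0.0777 ± 0.0010% in shControl and 0.0801 ± 0.0040% in shDYRK1A and the groups overlapped, so IGFBP5 held nearly all of the difference. A share of counts uses no spike-in, and in CPM 33.5% of all genes tested lay wholly above in shDYRK1A. In spike-in-normalized counts IGFBP5 overlapped between the groups.

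**Figure D3:**
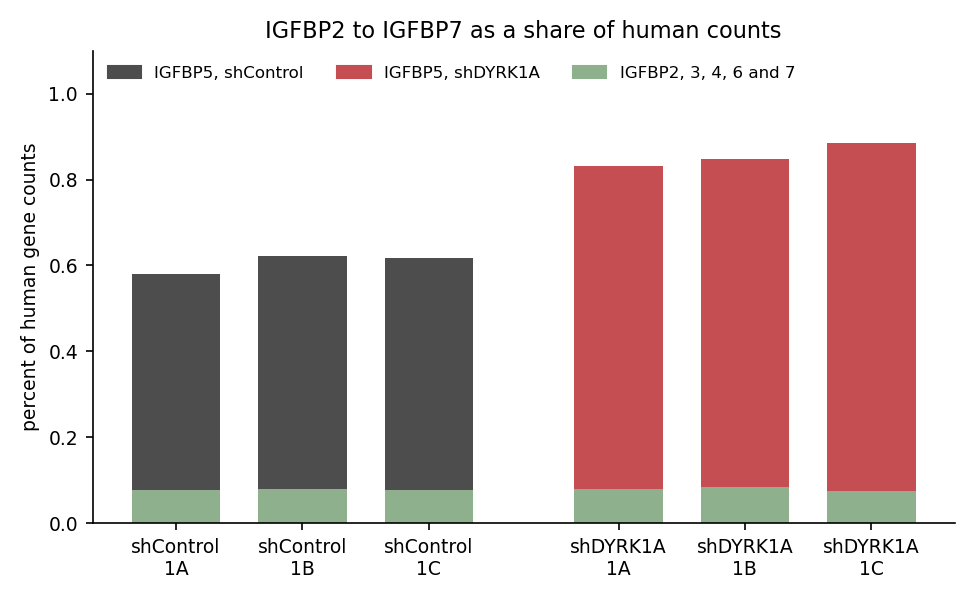
Reads of IGFBP2 to IGFBP7 as a percent of all human gene counts in each library, as bars from 0, with IGFBP5 in grey (shControl) or red (shDYRK1A) and the other members of the family in green. The bars reach 0.580 to 0.621% in shControl and 0.831 to 0.886% in shDYRK1A, while the green part stays between 0.0760 and 0.0839%.

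Within the family, IGFBP5 was 86.5, 87.4 and 87.6% of the IGFBP counts in shControl and 90.3, 90.1 and 91.4% in shDYRK1A. IGFBP4 went the other way, from 6.48, 6.01 and 6.03% to 3.73, 3.91 and 3.46%. Both parts were apart between the groups. The log2 ratio of IGFBP4 to IGFBP5, formed after the values were seen, was -3.82 ± 0.07 in shControl and -4.62 ± 0.10 in shDYRK1A. IGFBP6 (1.96 ± 0.07% and 1.48 ± 0.21%) and IGFBP7 (0.731 ± 0.035% and 0.570 ± 0.025%) also held smaller, non-overlapping parts of the family in shDYRK1A. For IGFBP3 the part was 3.11 ± 0.28% in shControl and 2.85 ± 0.33% in shDYRK1A, with overlapping groups and an exact permutation p of 0.5. These parts sum to a whole within each library, so a larger IGFBP5 part lowers the others.

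The neighbours IGFBP2 and IGFBP5 were compared in the same way. The log2 ratio of IGFBP2 to IGFBP5 was -6.72, -6.64 and -6.63 in shControl and -6.90, -6.74 and -6.92 in shDYRK1A. The groups were apart, with shDYRK1A 1B closest to shControl. The means were -6.66 ± 0.05 and -6.85 ± 0.10, a difference of -0.19 with an exact two-sided permutation p of 0.1.

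Per kilobase of exon, the level of the members spanned a wide range. The order in shControl, in normalized counts per kilobase, was IGFBP5 (37140 ± 3319), IGFBP4 (7704 ± 797), IGFBP6 (3998 ± 383), IGFBP3 (1875 ± 287), IGFBP7 (1043 ± 143), IGF2R (516 ± 39.8), IGFBP2 (496 ± 45.3), IRS1 (131 ± 15.4) and IRS2 (49.6 ± 7.23). IGF2R and IGFBP2 were the neighbours in this order that did not differ beyond their spread. In shDYRK1A IGFBP2 (473 ± 8.66) was above IGF2R (414 ± 54.6), here with ranges that just missed each other, and IRS1 came down to 60.6 ± 6.27, near the shControl level of IRS2.

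The genes whose profile over the 6 libraries was closest to a member were found by the root-mean-square distance of log2 normalized counts, centred on each gene's mean. For IGFBP5, the member with the highest fold change, they were MYD88, the adaptor of Toll-like receptors (distance 0.018), TMEM127, a membrane protein (0.023), and HS6ST1, a heparan sulfate sulfotransferase (0.025), beside a median distance of 0.28 over all genes. For IRS1, the member with the lowest, they were SSR3, a subunit of the translocon-associated complex (0.017), GPT2, a mitochondrial alanine transaminase (0.025), and CABLES1, a binding partner of cyclin-dependent kinases (0.026), beside a median of 0.36. The same 3 genes were nearest to IGFBP5 in CPM, but of those of IRS1 only GPT2 was. Among the members themselves the closest profiles were IGFBP7 and IGF2R (0.079) and IGFBP2 and IGFBP5 (0.12), and the farthest apart were IGFBP5 and IRS1 (0.62).

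The genes around the members were taken from a list of 49 insulin and IGF pathway genes, of which 29 passed the filter. With spike-in scaling 17 of the 29 were lower, 1 was higher and 11 did not pass the test, where 63.4% of all genes were lower and 1.08% higher. Their median log2 fold change was -0.37, beside -0.40 for all genes. With TMM scaling 8 were lower and 11 higher, where 28.6% of all genes were lower and 27.3% higher. The counts for the smaller groups of genes below stand beside these same shares. The genes named below as higher with TMM were named after their values were seen. Of the ligands and receptors only IGF1R passed the filter, at -0.22 ± 0.15 (adjusted p 0.172) with the spike-in and 0.18 (adjusted p 0.015) with TMM. IGF1, IGF2, INSR and INSRR were under the filter, as were the other binding-protein genes IGFBP1, IGFBPL1, IGFALS and ESM1. IGFBP1 had 0 reads in all libraries.

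Of the proteases that cut binding proteins and their inhibitors, 2 of the 4 tested were lower. They were STC2, a stanniocalcin that inhibits PAPPA (7273 ± 948 to 3847 ± 564 normalized counts, log2 fold change -0.92 ± 0.14), and ADAM12, a metalloprotease (-0.53 ± 0.16). With TMM scaling STC2 was lower (-0.52) and ADAM12 did not pass (-0.13, adjusted p 0.205), and with spike-in scaling ADAM12 lost its call without shControl 1A (adjusted p 0.061). With TMM the remaining genes tested, STC1, a stanniocalcin, and HTRA1, a serine protease, were higher (0.29 and 0.28). With spike-in scaling neither passed (-0.11 and -0.12). PAPPA2 and PAPPA were under the filter.

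PAPPA and IGF2 are given with their values because of what those values were, not by the rule for named genes. Under the wider filter 39 genes of the list were tested, with 21 lower and 2 higher. Over all genes 44.2% were lower and 1.97% higher in that filter. The other listed genes under the main filter, which include genes that passed in the wider one, are given by name only. PAPPA, the protease of IGFBP4, had normalized counts of 128, 162 and 126 in shControl and 381, 334 and 455 in shDYRK1A. All shDYRK1A libraries were above all shControl libraries, from raw counts of 105 to 143 and 361 to 553. Under the wider filter PAPPA rose, by 1.5 ± 0.19 on the log2 scale (adjusted p 3.2e-13), by 1.87 with TMM, and by 1.37 to 1.62 with each library left out. IGF2, the ligand, had normalized counts of 374, 438 and 343 in shControl and 178, 171 and 180 in shDYRK1A, again with no overlap, and fell by 1.13 ± 0.18 on the log2 scale (adjusted p 2.5e-08). It fell by 0.75 with TMM in that filter. STC1, the other stanniocalcin tested, had 5469 ± 549 normalized counts in shControl and 5057 ± 569 in shDYRK1A and is not in the ratio below. The log2 ratio of PAPPA to STC2 was -5.72 ± 0.27 in shControl and -3.30 ± 0.23 in shDYRK1A. It was formed after the values were seen, from a gene picked for its rise and a gene named for its fall. The difference between the groups follows from that choice.

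Of the adaptors, 2 of the 4 tested were lower: GRB10, which binds and restrains the insulin and IGF receptors (2572 ± 121 to 1271 ± 123 normalized counts, -1.02 ± 0.15), and SHC1, which links receptors to RAS (-0.37 ± 0.13, adjusted p 0.0102). GRB10 was lower with TMM as well (-0.62), whereas SHC1 was at 0.03 and lost its spike-in call without shControl 1A (adjusted p 0.063), shControl 1B (0.082), shDYRK1A 1B (0.071) or shDYRK1A 1C (0.063). The remaining genes tested, GRB2, which links receptors to RAS, and SH2B1, an adaptor of the insulin receptor, were higher with TMM (0.34 and 0.38). Neither passed with the spike-in (-0.07 and -0.02). IRS4, GRB14, SH2B2 and GAB1 were under the filter. Of the PI3K and AKT genes, 7 of the 10 tested were lower and 1 was higher with the spike-in, against 3 lower and 2 higher with TMM. Over all genes 63.4% were lower and 1.08% higher with the spike-in, and 28.6% and 27.3% with TMM. Their median spike-in log2 fold change was -0.45, near the -0.40 of all genes. PIK3CD, a PI3K catalytic subunit, was lower at -0.79 ± 0.17 (-0.39 with TMM). The higher gene was PIK3R3, a PI3K regulatory subunit, named here after its value was seen (0.51 ± 0.15, adjusted p 0.0013, and 0.91 with TMM). The other gene higher with TMM was AKT2, an AKT kinase (0.24, adjusted p 0.00070), which did not pass with the spike-in (-0.16). PIK3R2 was under the filter.

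FOXO3, the FOXO factor that passed the filter, was lower at -0.89 ± 0.15 (-0.49 with TMM), and FOXO1 and FOXO4 were under it. Of the genes that act as brakes on insulin signalling, 2 of 3 tested were lower: TRIB3, a pseudokinase that binds AKT (-0.94 ± 0.14, and -0.54 with TMM), and PTPN1, a phosphatase of the insulin receptor (-0.44 ± 0.14, and -0.04 with TMM, adjusted p 0.464). The remaining gene, SOCS3, a suppressor of cytokine signalling, was higher with TMM (0.34) and did not pass with the spike-in (-0.06). SOCS1 and SOCS2 were under the filter. In mannose 6-phosphate sorting, the other work of IGF2R, all 4 genes were tested and 2 were lower, NAGPA, which uncovers the sorting tag (-0.46 ± 0.16), and M6PR, the cation-dependent receptor (-0.33 ± 0.14). Neither passed with TMM (-0.05 and 0.07). The remaining genes, GNPTAB and GNPTG, subunits of the enzyme that starts the tag, were higher with TMM (0.29 and 0.20) and did not pass with the spike-in (-0.11 and -0.20). In normalized counts every shDYRK1A library was below every shControl library for GNPTG. With spike-in scaling NAGPA lost its call without shControl 1B (adjusted p 0.107) and M6PR without shControl 1A (0.161), shControl 1B (0.109), shDYRK1A 1B (0.157) or shDYRK1A 1C (0.114). Of the IGF2 mRNA-binding proteins, IGF2BP2 was lower (2598 ± 282 to 1265 ± 191 normalized counts, -1.04 ± 0.15, and -0.64 with TMM), IGF2BP3 did not pass the test with spike-in scaling and was higher with TMM (0.27), and IGF2BP1 was under the filter.

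**Figure D4:**
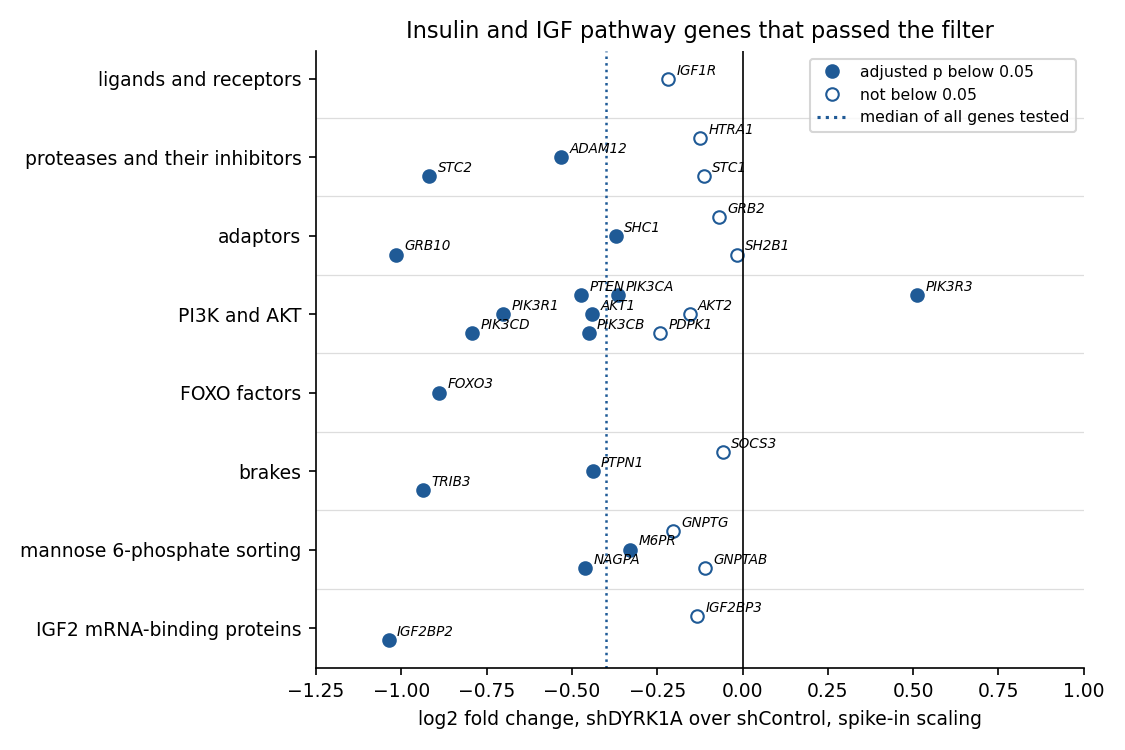
Log2 fold changes, shDYRK1A over shControl with spike-in scaling, of 28 pathway genes that passed the filter, 1 row per group of genes; vertical offsets within a row have no meaning. Filled circles have an adjusted p below 0.05 and the dotted line is the median of all genes tested (-0.40). IGF2BP2 and GRB10 lie farthest to the left of those shown and PIK3R3 is the gene to the right of 0 that passed.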

How the data were processed

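The authors deposited 1 table of raw counts per library, with 58174 human genes each, from stranded paired-end mRNA libraries. The submitters' processing notes name STAR, DESeq2, hg38 and dm3, and the counting settings are not given in the sources used here. Lines for reads on no gene were left out of library sizes and tests (unmapped 8.44 to 15.6%, multimapping 2.26 to 2.49%, outside features 3.66 to 4.81% and ambiguous 3.42 to 3.59% of reads). A second deposited table holds the authors' normalized signal for 23026 genes: the counts divided by a size factor that is constant within a library and that, by the methods of the study, comes from the fly reads. The remaining table, with the authors' DESeq2 fold changes on the log2 scale, p-values and a test score, was not used. Columns that matched no sample numbered 0.

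The size factors were those constants. Genes with a mean above 10 normalized CPM (9697) were tested on the counts with edgeR 4.0.16 (glmQLFit and glmQLFTest, robust), with Benjamini-Hochberg adjustment over all of them, and SE is the log2 fold change over the square root of F. On simulated counts for these genes, 100% of 200 changed genes were called, as were 8 unchanged ones. That rate is not split by size of change, and the rate of calls at the members' own fold changes was not tested. The 100% therefore gives no rate for log2 fold changes as small as those of IGFBP6 (-0.35) and IGF2R (-0.32). Single values were compared by exact two-sided permutation. Alternatives were TMM, median-of-ratios, DESeq2 1.42.0, filterByExpr, no filter, the fold-change threshold of 0.7, the replicate letter as a block and leaving out each library. CPM is per 1000000 human counts, and length is the union of GENCODE v29 exons. The members and the pathway and marker lists were chosen with earlier results of these data known. All members are named. Of each group of pathway genes, up to 2 with an adjusted p below 0.05 and the largest fold change are named, with those under the filter by name only, and the 3 genes nearest to the highest and the lowest member. A gene that this rule would name is not reported here.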

Additional observations from a re-analysis of the deposited data

How the results depend on the processing

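Scaling changed the direction of 5 members. With TMM scaling 2769 genes were lower and 2652 higher, and with median-of-ratios scaling 2719 and 2709, in place of 6145 and 105 with the spike-in. Both gave 2 members lower and 3 higher in place of 4 and 0, and 8 pathway genes lower and 11 higher in place of 17 and 1. The log2 fold changes that turned positive were, with TMM and then median-of-ratios scaling, those of IGFBP2 (0.34 and 0.34), IGFBP3 (0.35 and 0.35), IGFBP6 (0.067 and 0.070), IGFBP7 (0.11 and 0.12), IGF2R (0.081 and 0.084), SHC1 (0.031 and 0.034) and M6PR (0.069 and 0.073). The fold-change threshold left 1386 genes lower, 27 higher and 1 member lower. The genes higher numbered 346 with filterByExpr and 308 without a filter, and the pathway genes higher 2 in both. More genes were tested in these fits, and with filterByExpr the share higher was also larger (1.97% against 1.08%). IGF2R missed the threshold without a filter (adjusted p 0.064), and IGFBP7 passed it with DESeq2 (0.040).

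Leaving out each library in turn gave 3979 (without shControl 1A) to 7549 genes lower, 68 (without shDYRK1A 1C) to 111 higher, and 2 to 5 members lower, with 2 without shControl 1A, shControl 1B or shDYRK1A 1C. The fold change ran from -0.12 to 0.0073 for IGFBP2, from -0.19 to 0.020 for IGFBP3 and, with TMM, from -0.056 to 0.13 for IGFBP6. Over the named genes and the alternatives run for each, 282 values kept their direction and side of the threshold. With the sign kept, 25 lost the threshold and 7 gained it, and 18 changed sign. Some of those that changed sign also crossed the threshold: with TMM, IGFBP2 and IGFBP3 gained it and IGFBP6, IGF2R, SHC1 and M6PR lost it. IRS1, IRS2 and IGFBP4 kept their direction and call under every alternative run for them, except that the fold change was under the threshold of 0.7 in some (for IRS1 in 1, at -0.69, with TMM and without shControl 1A).

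Same-letter libraries deviated together only weakly (correlations 0.15, 0.073 and 0.13), so the letters were not taken to pair the samples. With the letter as a block, 4 members were lower and 0 higher, 5911 genes were lower and 98 higher, and no member's call changed. The share and the ratios had a paired exact p of 0.25, the smallest possible. With 3 libraries a group no exact test could go below 0.1, and IRS2, PAPPA and IGF2 rest on 105 to 553 reads a library.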
